A study of Sus scrofa with 15 samples.

Results

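Transcription factors of 11 developmental families outside the HOX clusters were followed through somatic cell nuclear transfer (SCNT) in the pig. The members are the genes whose symbol starts with FOX and a class letter from A to S, with SOX, PAX, TBX, LHX, DLX, NKX, IRX, MEIS or MSX, or with the prefix of the *sine oculis* homeobox genes (such as *SIX4*), followed by a number, each taken once per gene identifier and without the pluripotency factor *SOX2*. This name rule used no measured value and gave 126 of the 43294 features of the table, among them 43 FOX, 18 SOX, 14 NKX, 13 TBX, 8 PAX, 7 LHX, 6 DLX, 6 IRX, 6 *sine oculis*, 3 MEIS and 2 MSX genes. RNA-seq was done on 5 groups of 3 libraries. PFF were primary porcine fetal fibroblasts at passages 2 to 5, the cells that served as nuclear donors. SCNT4c and SCNT8c were untreated cloned embryos at the 4-cell and the 8-cell stage. SCNT4c-KG were 4-cell cloned embryos that received mRNA of the H3K9me3 demethylase KDM4A (1000 ng/µl, injected 5 h after activation) and were cultured for 48 h in 0.1 µM GSK126, which blocks EZH2, the enzyme that methylates H3K27. SCNT4c-TDG were 4-cell cloned embryos whose donor PFF carried a doxycycline-inducible vector for TDG, a thymine DNA glycosylase that takes part in DNA demethylation. The donor cells of this group had been selected with puromycin, and doxycycline was added at 500 ng/ml between 40 and 72 h. All embryo groups share the enucleated oocyte and the fibroblast nucleus, and each embryo library pooled 30 embryos, so single embryos are not resolved. SCNT4c is the control of both treatments. Embryos given KDM4A mRNA or GSK126 alone, and embryos of cells with an empty vector, were not analysed here. Nothing in the labels ties the libraries of a group to separate donors, so the p-values measure the spread between pools, which may be technical.

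Members of these families bind DNA through a forkhead, HMG box, paired, T-box or homeodomain fold and set the identity of cells along the body axes and in single organs. In cells that do not use them, many of their promoters lie in CpG-rich DNA and carry H3K27me3, the mark laid down by Polycomb repressive complex 2 through its subunit EZH2, which is why they are counted among the typical Polycomb targets. A fibroblast keeps a subset of them active, mainly factors of mesenchyme and limb, and most others are known from neural, endodermal or germ line tissue. H3K27me3 itself was not measured in these libraries.

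Depth ranged from 12354649 to 22868038 assigned reads per library, lowest in SCNT4c-KG (12354649 to 15390472). Each value below is a read count scaled by its library's factor (a normalized value). The columns were assigned by sample title and column name. The sample descriptions go against this in part: those of the SCNT4c-KG samples carry the names that the table gives to the SCNT4c columns, and that of SCNT8c library 3 carries a number that no SCNT8c column has, so every comparison that uses these groups rests on the titles. The treated gene products were higher in the libraries titled for them. *KDM4A* was 313, 136 and 134 in SCNT4c libraries a, b and c against 1437, 1476 and 1429 in SCNT4c-KG, and *TDG* was 1659.5, 939 and 2541 in SCNT4c against 56925, 59944 and 49857 in SCNT4c-TDG. Each was also above SCNT4c under the other treatment, *KDM4A* at 852, 555 and 918 in SCNT4c-TDG and *TDG* at 4474, 3886 and 4738 in SCNT4c-KG. SCNT8c library 3 stood apart from libraries 1 and 2: without it 6133 features were called between SCNT8c and SCNT4c (adjusted p under 0.05 and over 2-fold, the rule used throughout), and with it 1096. Of 15 fibroblast markers in the table, all 14 tested were lower in SCNT4c than in PFF. Their summed value ran from 4.24e+06 to 4.55e+06 in PFF and from 1921 to 7803 over the embryo libraries. *PDGFRA* was listed at 0 in all groups and *COL5A1* in the embryos. Summed oocyte markers ran from 73347 to 93198 in SCNT4c, 31236 to 56951 in SCNT4c-KG, 16061 to 18407 in SCNT4c-TDG, 38361 to 47681 in SCNT8c and 11.5 to 20.3 in PFF, with *GDF9*, *BMP15* and *MOS* listed at 0 in every group. Summed cumulus cell markers lay between 582 and 1987 in the embryos, with *PTX3* and *AMH* listed at 0 there. RNA kept from the oocyte and RNA made in the embryo cannot be told apart in these libraries.

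Of the 126 members, those with a mean normalized value of at least 10 numbered 60 in PFF, 56 in SCNT4c, 58 in SCNT4c-KG, 50 in SCNT4c-TDG and 48 in SCNT8c. In this order that was 47.6%, 44.4%, 46.0%, 39.7% and 38.1% of members. Of the 28224 annotated genes of the table it was 39.7%, 43.7%, 43.9%, 41.5% and 41.4%. The groups differed more at high values. A mean of at least 100 was reached by 38 members in PFF, 16 in SCNT4c, 16 in SCNT4c-KG, 11 in SCNT4c-TDG and 13 in SCNT8c. A mean of at least 500 was reached by 25 in PFF and by 3 to 5 in each embryo group. The mean of 113 members seen in any library was highest in PFF for 53, in SCNT4c-KG for 22, in SCNT4c-TDG for 17, in SCNT4c for 15 and in SCNT8c for 6. The members' summed value was 40357 ± 513 (SD, n = 3) in PFF, 9736 ± 2277 in SCNT4c, 9166 ± 627 in SCNT4c-KG, 5951 ± 141 in SCNT4c-TDG and 8557 ± 2230 in SCNT8c, which was 0.145% of the library in PFF and between 0.0399% and 0.0541% in the embryo groups. The SCNT4c-TDG libraries, at 5838 to 6109, lay below every other library (the next was 7229 in SCNT8c). Scaled to the same total in each library, SCNT4c-TDG was still the lowest group, at 7771, but its highest library (7978) was then above the lowest of SCNT8c (7459).

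**Figure D1:**
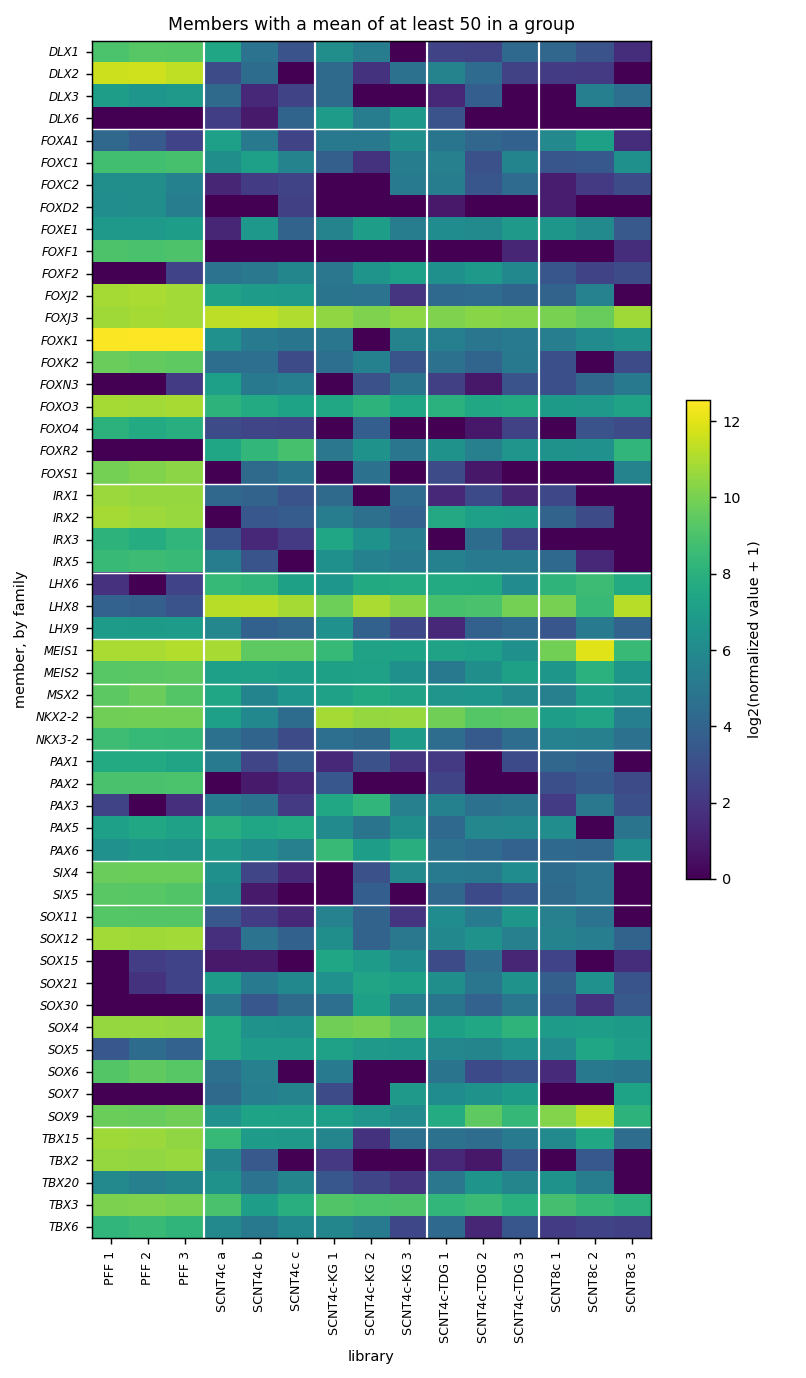
Heat map of log2(normalized value + 1) for 54 members with a mean of at least 50 in a group, by library (columns, grouped by white lines) and family (rows). PFF is the brightest block, with FOXK1 at the top of the scale, while LHX8, LHX6 and FOXR2 are brighter in the embryos than in PFF and NKX2-2 brightens in SCNT4c-KG and SCNT4c-TDG.

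Counting members with at least 3 reads gave another order. PFF libraries held 65, 68 and 72 such members, SCNT4c 62, 66 and 69, SCNT4c-KG 53, 59 and 68, SCNT4c-TDG 71, 74 and 76, and SCNT8c 47, 57 and 60. SCNT4c-TDG thus had the most members seen on average and the lowest sum, though PFF library 3 (72) lay above SCNT4c-TDG library 2 (71). With reads thinned to the lowest library total the means were 65 in PFF, 62.3 in SCNT4c, 59.7 in SCNT4c-KG, 68 in SCNT4c-TDG and 53.7 in SCNT8c, and the ranges of SCNT4c-TDG (64 to 70) and PFF (61 to 67) overlapped. At 10 reads per member PFF (57.3) was above SCNT4c-TDG (55.3), so the lead of SCNT4c-TDG rested on members with few reads.

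**Figure D2:**
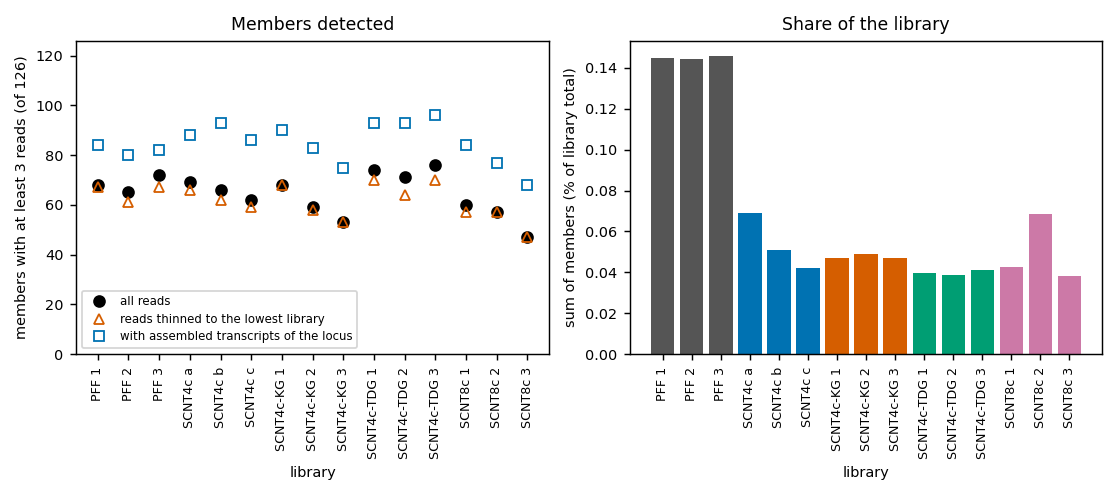
Left, number of the 126 members with at least 3 reads in each library, with all reads, with reads thinned to the lowest total, and with assembled transcripts of the locus added. Right, the members' summed value as a percent of the library total. SCNT4c-TDG holds 71 to 76 detected members, and its share of the library is 0.0399% on average against 0.145% in PFF.

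Per kilobase of exon, the only scale on which members are compared with each other here, the leading members differed between donor cells and embryos. In PFF they were *DLX2* (1175 per kb), *IRX1* (841), *FOXK1* (752), *IRX2* (601) and *TBX2* (548). In SCNT4c they included *LHX8*, a LIM homeodomain factor of oocytes and of the basal forebrain (1011 per kb), the forkhead gene *FOXJ3* (324), the HOX cofactor *MEIS1* (203) and the X-linked forkhead gene *FOXR2* (99.6). *LHX8* led in every embryo group, at 630 in SCNT4c-KG, 295 in SCNT4c-TDG and 564 in SCNT8c. *NKX2-2*, a homeodomain factor of the ventral neural tube and the endocrine pancreas, was second in SCNT4c-KG (551) and in SCNT4c-TDG (238). *SOX9*, a factor of cartilage and gonad, was second in SCNT8c (361). *LHX8* shares exon sequence with a gene on the other strand (*LOC110261207*), and since the strand setting of the counting is not given, reads of the pair cannot be told apart.

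The promoters of the members were richer in CpG than the average. In the 300 bases around the start site (250 before, 50 after; RefSeq, Sscrofa11.1), all 126 members had a window, with a median observed-over-expected CpG ratio of 0.780 against 0.650 over the windows of all 19545 protein-coding genes, and 73.8% of members were over 0.6 against 54.1%. Binding motifs known from these families, searched on both strands, were not uniformly more frequent: TAAT, the core of homeodomain sites, was in 40.5% of members' windows and 49.3% of all, the forkhead core TGTTTAC in 4.76% and 2.65%, the SOX core ACAAAG in 11.11% and 13.9%, the MEIS core TGACAG in 14.3% and 13.0%, and the T-box core AGGTGTG in 0.794% and 4.55%. The windows of 4 members on which the results below turn are shown, with CpG in capitals. Their observed-over-expected ratios ran from 0.312 to 1.17, within the 0.158 to 1.22 of all members. *NKX2-2* (chr17:29279523-29279822, minus strand) had 24 CpG, *FOXD3* (chr6:149155527-149155826, minus) 34 and *IRX2* (chr16:78305619-78305918, plus) 52, while *FOXR2* (chrX:48174068-48174367, plus) had 2.
NKX2-2: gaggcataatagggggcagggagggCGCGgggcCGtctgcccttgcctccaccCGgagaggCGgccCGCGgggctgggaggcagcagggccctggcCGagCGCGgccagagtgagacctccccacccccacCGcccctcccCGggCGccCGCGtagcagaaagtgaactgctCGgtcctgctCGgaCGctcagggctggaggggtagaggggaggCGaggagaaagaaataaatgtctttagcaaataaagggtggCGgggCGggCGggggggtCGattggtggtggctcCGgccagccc
FOXD3: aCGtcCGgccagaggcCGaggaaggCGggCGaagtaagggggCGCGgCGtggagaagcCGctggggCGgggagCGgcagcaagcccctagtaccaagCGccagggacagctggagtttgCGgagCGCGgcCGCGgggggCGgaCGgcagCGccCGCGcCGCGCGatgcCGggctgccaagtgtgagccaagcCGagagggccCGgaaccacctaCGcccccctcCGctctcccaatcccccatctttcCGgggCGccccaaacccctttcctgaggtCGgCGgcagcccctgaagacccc
IRX2: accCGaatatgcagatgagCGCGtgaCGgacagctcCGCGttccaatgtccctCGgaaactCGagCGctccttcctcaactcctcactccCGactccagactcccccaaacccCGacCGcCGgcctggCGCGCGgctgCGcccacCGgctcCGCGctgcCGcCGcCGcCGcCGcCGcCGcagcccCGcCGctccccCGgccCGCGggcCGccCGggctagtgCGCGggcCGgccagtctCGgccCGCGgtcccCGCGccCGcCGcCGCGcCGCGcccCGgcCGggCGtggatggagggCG
FOXR2: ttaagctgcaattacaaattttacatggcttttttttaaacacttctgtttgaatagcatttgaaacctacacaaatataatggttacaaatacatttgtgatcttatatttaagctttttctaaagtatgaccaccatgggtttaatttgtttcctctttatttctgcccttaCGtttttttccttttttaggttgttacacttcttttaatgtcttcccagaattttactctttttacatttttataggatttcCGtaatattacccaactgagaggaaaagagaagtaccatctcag

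The first comparison asks what became of the members' transcripts between donor cells and untreated 4-cell clones. Most of those measured were lower in the embryos. Of 126 members 71 passed the minimum mean of 10 over the 6 libraries, and 57 were called (adjusted p under 0.05 and over 2-fold; limma on log2(value + 1), Benjamini-Hochberg over 19287 features), 43 lower and 14 higher. Over all features tested 78.2% were called, 38.5% lower and 39.7% higher, so the share of members called (80.3%) was near the background, while the split between directions was not even. The median log2 fold change was -2.83 over the members tested and 0.07 over all features. With the assembled transcripts of each locus added, 95 members were tested, and 28 were called higher and 44 lower. Their median was then -0.82, against 0.06 over all features, of which 78.2% were called. Adding them only at loci with no other gene gave -2.40 over 79 members, 19 higher and 44 lower. Without the minimum mean, 101 members were tested, 19 higher and 48 lower, with medians of -1.98 and 0.49 (55.1% of all features called). Of the 57, 56 had groups that did not overlap, the exception being *FOXD1*, as did 99.5% of all called features. Fewer cells of a type and less RNA per cell cannot be told apart in such bulk libraries.

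Members known from mesenchyme and limb were mostly lower. Of 20 tested among 23 listed, 16 were lower and 2, *FOXF2* and *FOXP1*, higher. *FOXF1*, a forkhead factor of splanchnic mesenchyme, was 535, 493 and 522 in PFF libraries 1, 2 and 3 and 0 in each library of SCNT4c, at least 207-fold lower (0 reads against a floor of 3). *DLX2*, a homeodomain factor of the branchial arches and forebrain, was 3157, 3202 and 2659 in PFF and 6.31, 21.0 and 0 in SCNT4c (log2 fold change -9.11 ± 1.08 (SE), adjusted p = 0.000327). No value of either gene in the embryos came near the donor level. *TBX2*, a T-box repressor of limb and heart, was 1505, 1479 and 1553 in PFF and 53.6, 10.5 and 0 in SCNT4c (log2 fold change -7.47 ± 1.38 (SE), adjusted p = 0.00260). *FOXS1*, a forkhead gene known from pericytes, was 969, 1153 and 1309 in PFF against 0, 19.2 and 28.2 in SCNT4c (log2 fold change -7.08 ± 1.27 (SE), adjusted p = 0.00230). *TBX15*, a limb mesenchyme factor, fell from 1729, 1638 and 1428 to 341, 117 and 105 (log2 fold change -3.29 ± 0.46 (SE), adjusted p = 0.000725), and library a kept the highest value. *TBX3*, which acts in limb and in the early embryo, was 1098, 1114 and 1057 in PFF against 491, 129 and 232 in SCNT4c (log2 fold change -2.15 ± 0.47 (SE), adjusted p = 0.00560). *TBX2* and *TBX3* also lost their calls under other settings, given with the other lost calls of this comparison.

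The Iroquois genes and most *sine oculis* genes tested fell as well, while the PAX genes were mixed. *IRX1* was 1652, 1532 and 1506 in PFF and 17.4, 14.9 and 8.30 in SCNT4c (log2 fold change -6.81 ± 0.30 (SE), adjusted p = 4.6e-06). *IRX2* was 1842, 1679.9 and 1597 in PFF against 0, 9.61 and 11.6 in SCNT4c (log2 fold change -8.38 ± 0.98 (SE), adjusted p = 0.000308). Both pattern limb and lung, and all 4 IRX genes tested were lower. The minimum mean over both groups decided which were tested. A further IRX gene that did not reach it had means of 1.61 in PFF and 14.8 in SCNT4c. *SIX4*, a muscle and sensory factor, was 818, 865 and 862 in PFF against 77.3, 5.24 and 1.66 in SCNT4c (log2 fold change -6.28 ± 1.21 (SE), adjusted p = 0.00312), and *SIX5* was 652, 628 and 561 in PFF against 60.7, 0.874 and 0 in SCNT4c (log2 fold change -6.98 ± 1.52 (SE), adjusted p = 0.00548). In these *sine oculis* genes library a of SCNT4c carried nearly all of the embryo reads. Of 6 PAX genes tested 2, *PAX1* and *PAX2*, were lower and *PAX7* higher, and *PAX5*, a B cell factor, was not called at 137, 177 and 143 in PFF against 243, 170 and 207 in SCNT4c (adjusted p = 0.122). *PAX2*, a kidney and eye factor, was 487, 490.3 and 514 in PFF against 0, 0.874 and 1.66 in SCNT4c, with 3 reads over the SCNT4c libraries, which put the ratio of embryo to donor at 0.00167 (95% counting interval 0.000343 to 0.00489). For *PAX2*, as for the Iroquois and *sine oculis* genes named here, every SCNT4c library was below every PFF library. *DLX1*, the neighbour of *DLX2*, was 519, 620.2 and 598 in PFF against 165, 26.2 and 8.30 in SCNT4c (log2 fold change -4.06 ± 1.01 (SE), adjusted p = 0.00945).

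Among the SOX genes, 7 of 10 tested were lower. *SOX11*, a SoxC factor of progenitor cells, was 611, 585 and 596 in PFF against 9.46, 3.50 and 1.66 in SCNT4c (log2 fold change -6.90 ± 0.52 (SE), adjusted p = 3.8e-05). *SOX12*, of the same subgroup, was 1796, 1769 and 1821 in PFF against 2.37, 26.2 and 14.1 in SCNT4c (log2 fold change -7.33 ± 0.75 (SE), adjusted p = 0.000165). *SOX6*, a chondrocyte and muscle factor, was 581, 731 and 626 in PFF against 23.7, 43.7 and 0 in SCNT4c (log2 fold change -5.96 ± 1.40 (SE), adjusted p = 0.00758). *SOX4* is the remaining SoxC gene and kept more of its donor value than *SOX11* or *SOX12*. It was 1514, 1535 and 1450.5 in PFF against 205, 85.6 and 78.9 in SCNT4c (log2 fold change -3.74 ± 0.38 (SE), adjusted p = 0.000165). *SOX9* was 853, 783 and 906 in PFF against 82.0, 156 and 144 in SCNT4c (log2 fold change -2.78 ± 0.28 (SE), adjusted p = 0.000159). Every SOX gene named here had donor values above all SCNT4c values. *MSX2*, a homeodomain factor of skull and limb, was 667, 814 and 580.4 in PFF against 166, 48.9 and 94.7 in SCNT4c (log2 fold change -2.88 ± 0.45 (SE), adjusted p = 0.00124), and *MEIS2*, a TALE homeodomain cofactor, was 633, 655 and 661 in PFF against 135, 147 and 132 in SCNT4c (log2 fold change -2.23 ± 0.16 (SE), adjusted p = 2.9e-05).

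The forkhead genes used by most cell types split. *FOXK1*, a regulator of metabolism and autophagy, fell from 5759, 6028 and 5863 to 81.2, 36.7 and 28.2 (log2 fold change -7.03 ± 0.39 (SE), adjusted p = 1.1e-05), and its relative *FOXK2* from 837, 745 and 685 to 22.1, 22.7 and 6.64 (log2 fold change -5.55 ± 0.48 (SE), adjusted p = 7.6e-05). *FOXO3*, a target of insulin signalling, fell from 1872, 1833 and 1924 to 278, 203 and 154 (log2 fold change -3.18 ± 0.24 (SE), adjusted p = 3.8e-05), and *FOXJ2* from 1892, 1978 and 1821 to 151, 117 and 108 (log2 fold change -3.92 ± 0.18 (SE), adjusted p = 5.5e-06). Its paralog *FOXJ3* stood at 1727, 1852 and 1799 in PFF and 2512, 2577 and 2161 in SCNT4c, a log2 fold change of 0.43 ± 0.12 (SE) that was not called (adjusted p = 0.0134). *MEIS1*, at 1990.0, 1973 and 2207 in PFF against 1953, 696 and 705 in SCNT4c, was not called either (log2 fold change -1.06 ± 0.42 (SE), adjusted p = 0.0534), with library a near the donor level. Of the 126 members 14 share exon sequence with another gene. Among them, *FOXF1*, *FOXK2*, *IRX3*, *SIX5*, *SOX15* and *TBX5* do so with a gene on the other strand, *MEIS2* with one on the same strand and *FOXN3* with both, and their values may hold reads of these neighbours.

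Of 14 members higher in SCNT4c, 11 are given here. *FOXR2*, which binds and stabilises MYC, rose from 0 in each library of PFF to 167, 315 and 475, at least 86.5-fold. *LHX8* rose from 14.7, 12.7 and 8.34 to 2386, 2459 and 1847 (log2 fold change 7.45 ± 0.27 (SE), adjusted p = 2.2e-06). The promoter window of *FOXR2*, shown above, has the fewest CpG of the 4. Over all called members the median observed-over-expected CpG ratio was 0.786 for the 14 higher in SCNT4c and 0.784 for the 43 lower. *LHX6*, an interneuron factor, was 2.44, 0 and 4.77 in PFF against 335, 293 and 139 in SCNT4c (log2 fold change 6.47 ± 0.73 (SE), adjusted p = 0.000256), and *LHX4*, a pituitary factor, was 0 in each library of PFF against 72.6, 6.99 and 44.0, at least 11.2-fold higher. *SIX6*, an eye factor, was 0 in each library of PFF and 30.0, 55.9 and 30.7 in SCNT4c, at least 10.5-fold higher. These 3 are known from the nervous system and sense organs. Of 12 tested from the list of neural and sensory members, which does not hold *LHX6*, 4 were higher (*LHX4*, *PAX7*, *SIX6* and *SOX21*) and 4 lower.

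*SOX7*, a SoxF factor of endoderm and vessels, was 0 in each library of PFF and 18.9, 40.2 and 48.2 in SCNT4c, at least 9.70-fold higher. *SOX21*, a neural SoxB gene, was 0, 2.55 and 4.77 in PFF against 117, 36.7 and 58.1 in SCNT4c (log2 fold change 4.55 ± 0.77 (SE), adjusted p = 0.00176). *FOXF2*, a partner of *FOXF1* in mesenchyme, was 0, 0 and 4.77 in PFF against 26.8, 31.5 and 53.1 in SCNT4c (log2 fold change 4.35 ± 0.78 (SE), adjusted p = 0.00221). So the paired forkhead genes *FOXF1* and *FOXF2* were high in opposite groups. *PAX7*, a muscle stem cell factor, was 4.89, 0 and 0 in PFF against 67.0, 22.7 and 13.3 in SCNT4c (log2 fold change 3.98 ± 0.92 (SE), adjusted p = 0.00712). *FOXP1*, a forkhead repressor, was 0, 2.55 and 7.15 in PFF against 57.6, 35.8 and 48.2 in SCNT4c (log2 fold change 3.95 ± 0.78 (SE), adjusted p = 0.00352), and *FOXN3*, a checkpoint repressor that shares exons with other genes, was 0, 0 and 3.58 in PFF against 135, 32.3 and 39.9 in SCNT4c, a ratio of 57.6 (95% counting interval 19.5 to 281, 3 reads in PFF). In each of these 11 members, the lowest embryo library was above the highest PFF library. Of the 57 calls 48 held in every alternative. Those of *PAX7* (adjusted p = 0.0709) and *TBX3* (0.0816) were lost with quantile normalization in limma and that of *LHX9* in edgeR (0.0578). With the assembled transcripts of the locus added, which other genes share, *TBX2* fell by 0.75 on the log2 scale, under the 2-fold limit, and *FOXL1* was not called (adjusted p = 0.692). The calls of *FOXD1*, *FOXQ1*, *SOX13* and *TBX5* were lost without single libraries (adjusted p = 0.0668 to 0.133, 0.0563 to 0.0656, 0.0847 to 0.125 and 0.0521); for *TBX5* this was PFF library 1 alone, and for *FOXQ1* PFF library 1 or 3 or SCNT4c library b. *FOXD1* was lost without any PFF library or SCNT4c b or c, and *SOX13* without any PFF library or SCNT4c a or b.

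**Figure D3:**
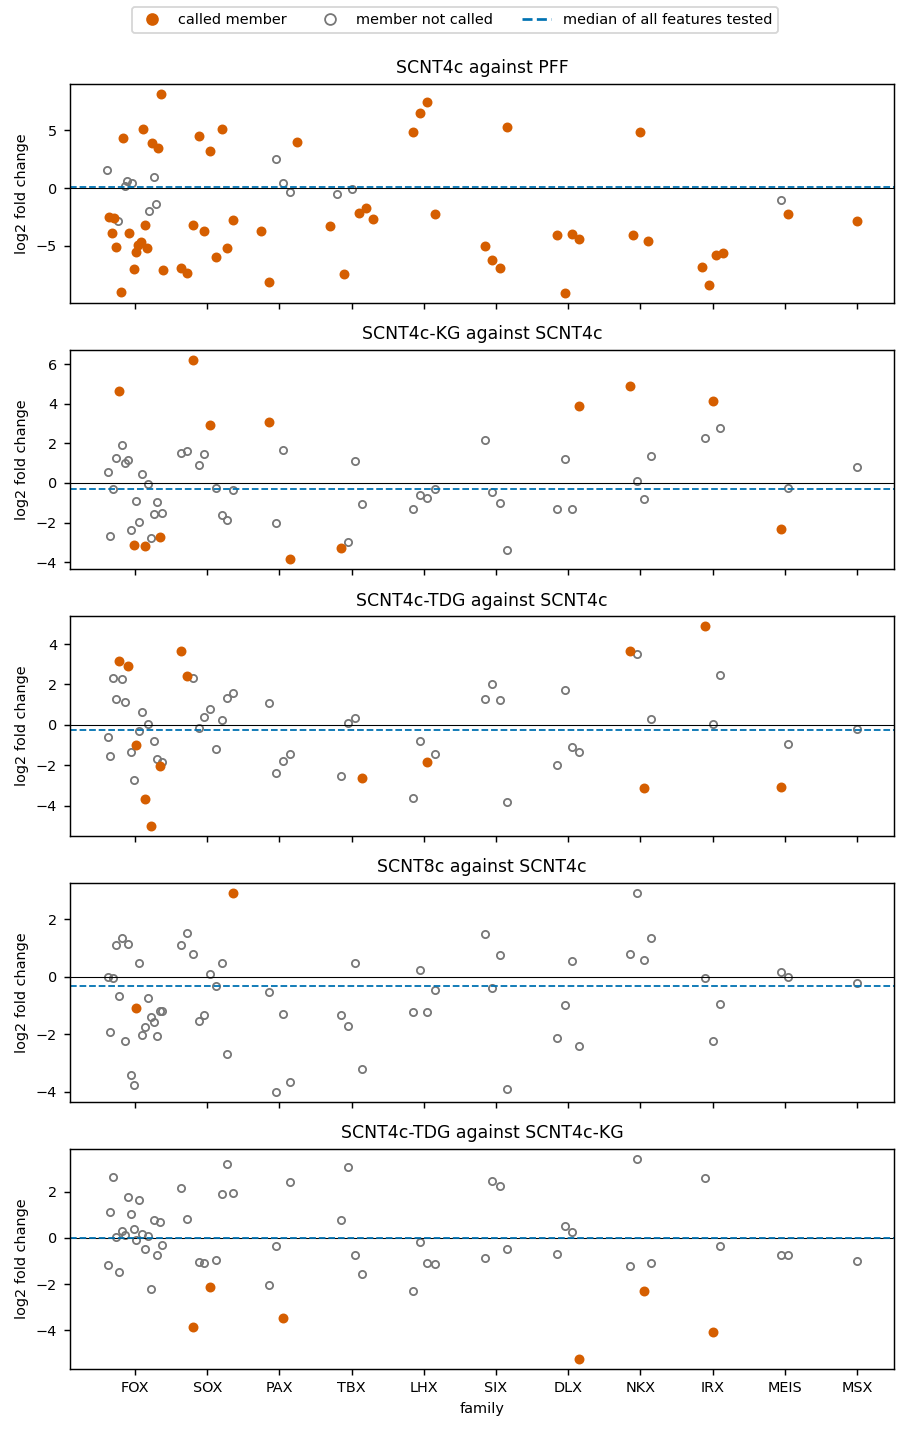
Log2 fold change of each member tested, by family, in 5 comparisons; filled points are called members and the dashed line is the median of all features tested. In SCNT4c against PFF most families lie below the line and 3 of 4 LHX genes above it, while the treatments show called points on both sides, and in SCNT4c-TDG against SCNT4c-KG all 6 called points lie below.

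The second comparison asks which members changed when KDM4A mRNA and GSK126 were given together. Single genes rose steeply, among them *NKX2-2*, *SOX4*, *SOX15* and *FOXD3*, while *FOXR2*, *MEIS1* and *TBX15* fell. Of 60 members tested 13 were called, 7 higher and 6 lower (21.7%), against 37.2% of the 18942 features tested (17.6% higher, 19.6% lower). With a minimum mean of 50 in place of 10, 6 of 23 members were called, against 49.5% of all features. The median log2 fold change was -0.29 over the members and -0.30 over all features. All 13 had groups that did not overlap, as did 97.5% of all called features.

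*NKX2-2* (chr17:29275656-29279572) rose above the level of the donor cells. It was 136, 56.8 and 20.8 in SCNT4c libraries a, b and c against 1843, 1534 and 1594 in SCNT4c-KG libraries 1, 2 and 3 (log2 fold change 4.89 ± 0.60 (SE), adjusted p = 2.5e-05), with 914, 935 and 949 in PFF. *SOX4* was 205, 85.6 and 78.9 in SCNT4c against 912, 1004 and 657 in SCNT4c-KG (log2 fold change 2.91 ± 0.45 (SE), adjusted p = 0.00018), and stayed below PFF. Both calls held in every alternative, and for each gene the lowest treated library was above the highest control library. *PAX3*, a neural crest and muscle factor, was 34.7, 24.5 and 3.32 in SCNT4c against 181, 307 and 42.7 in SCNT4c-KG (log2 fold change 3.10 ± 1.0 (SE), adjusted p = 0.0237), with the treated libraries spread widely. *FOXD3*, a forkhead factor of pluripotent cells and neural crest, was 3.15, 0 and 0 in SCNT4c against 31.0, 53.3 and 38.5 in SCNT4c-KG (log2 fold change 4.67 ± 0.93 (SE), adjusted p = 0.00130), and was at most 2.55 in PFF. *IRX3* was 7.89, 1.75 and 3.32 in SCNT4c against 167, 83.8 and 39.9 in SCNT4c-KG (log2 fold change 4.14 ± 1.13 (SE), adjusted p = 0.01005), where PFF had 279, 215 and 309.9. *IRX3* shares exon sequence with *LOC110261350* on the other strand.

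*SOX15*, a SoxG gene of embryonic stem cells and muscle progenitors, went from 0.789, 0.874 and 0 in SCNT4c to 165, 121 and 67.0 in SCNT4c-KG (log2 fold change 6.21 ± 1.04 (SE), adjusted p = 0.00034). With 2 reads over the SCNT4c libraries the ratio was 209 (95% counting interval 57.3 to 1736). It shares exon sequence with *MPDU1* on the other strand, which moved with it: *MPDU1* was 11, 5.24 and 9.13 in SCNT4c against 137, 141 and 49.9 in SCNT4c-KG. Without the strand of the reads the pair cannot be told apart. *DLX6*, a homeodomain factor of jaw and limb, was 3.94, 0.874 and 15.8 in SCNT4c against 116, 39.3 and 104 in SCNT4c-KG (log2 fold change 3.88 ± 1.15 (SE), adjusted p = 0.0156), and 0 in each library of PFF. So *DLX6*, *SOX15* and *FOXD3* were near or at 0 in the donor cells, while *NKX2-2*, *SOX4* and *IRX3* were high there.

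The members that fell in SCNT4c-KG included *FOXR2*, at 167, 315 and 475 in SCNT4c against 31.0, 85.0 and 29.9 in SCNT4c-KG (log2 fold change -2.74 ± 0.65 (SE), adjusted p = 0.00434), a call that held in every alternative. *MEIS1* was 1953, 696 and 705 in SCNT4c against 335, 151 and 152 in SCNT4c-KG (log2 fold change -2.31 ± 0.70 (SE), adjusted p = 0.0175). *TBX15* was 341, 117 and 105 in SCNT4c against 52.3, 2.54 and 22.8 in SCNT4c-KG (log2 fold change -3.30 ± 0.97 (SE), adjusted p = 0.0147). In each of these genes the highest treated library was below the lowest control. *PAX7* was 67.0, 22.7 and 13.3 in SCNT4c against 6.53, 0 and 0 in SCNT4c-KG (log2 fold change -3.86 ± 1.21 (SE), adjusted p = 0.0209). *FOXN3* was 135, 32.3 and 39.9 in SCNT4c against 0, 7.61 and 27.1 in SCNT4c-KG (log2 fold change -3.19 ± 1.18 (SE), adjusted p = 0.0449), and *FOXJ2* was 151, 117 and 108 in SCNT4c against 27.8, 26.6 and 2.85 in SCNT4c-KG (log2 fold change -3.11 ± 1.18 (SE), adjusted p = 0.0498). The summed oocyte markers were 31236 to 56951 in SCNT4c-KG against 73347 to 93198 in SCNT4c, but *ZP4* made up 89.8% of the SCNT4c sum, and without it the sums were 8779 to 10878 against 7599 to 9982. Of 7 oocyte markers tested *TCL1A* and *ZP3* were higher in SCNT4c-KG and *DAZL* and *ZP4* lower. Of 11 fibroblast markers tested 6 were lower and 3, *S100A4*, *THY1* and *VIM*, higher, with sums of 2963 to 5293 against 6491 to 7803. The part of these markers in the falls was not tested.

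Several of these calls depended on the setting or on few libraries. With the assembled transcripts of its locus added, which another gene shares, the log2 fold change of *FOXD3* was 1.75 and was not called (adjusted p = 0.0692). With a pseudocount of 0.1 *IRX3* (0.0806) and *DLX6* (0.108) were not called in limma. In edgeR on the recovered reads *DLX6* (adjusted p = 0.0986), *FOXJ2* (0.0640), *FOXN3* (0.118) and *PAX7* (0.0957) were not called. With 1 library left out, limma no longer called *DLX6* without SCNT4c b, SCNT4c-KG 1 or SCNT4c-KG 3 (adjusted p = 0.0505 to 0.0778), *MEIS1* without SCNT4c a, SCNT4c-KG 2 or SCNT4c-KG 3 (0.0605 to 0.0875), *PAX3* without SCNT4c c, SCNT4c-KG 1 or SCNT4c-KG 2 (0.0715 to 0.108), *PAX7* without SCNT4c b, SCNT4c-KG 2 or SCNT4c-KG 3 (0.0509 to 0.0736) and *TBX15* without SCNT4c a or SCNT4c-KG 2 (0.0693 to 0.0733). *FOXN3* was lost without each library but SCNT4c-KG 3 (0.0644 to 0.193) and *FOXJ2* without each of the 6 (0.0535 to 0.193). The count of members called was 7 without SCNT4c-KG library 2 (6 higher, 1 lower), where 29.5% of all features were called. It was 10 without SCNT4c library a (9 higher, 1 lower), where 30.1% of all features were called and the median log2 fold change was 0.06 over the members and -0.24 over all features.

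**Figure D4:**
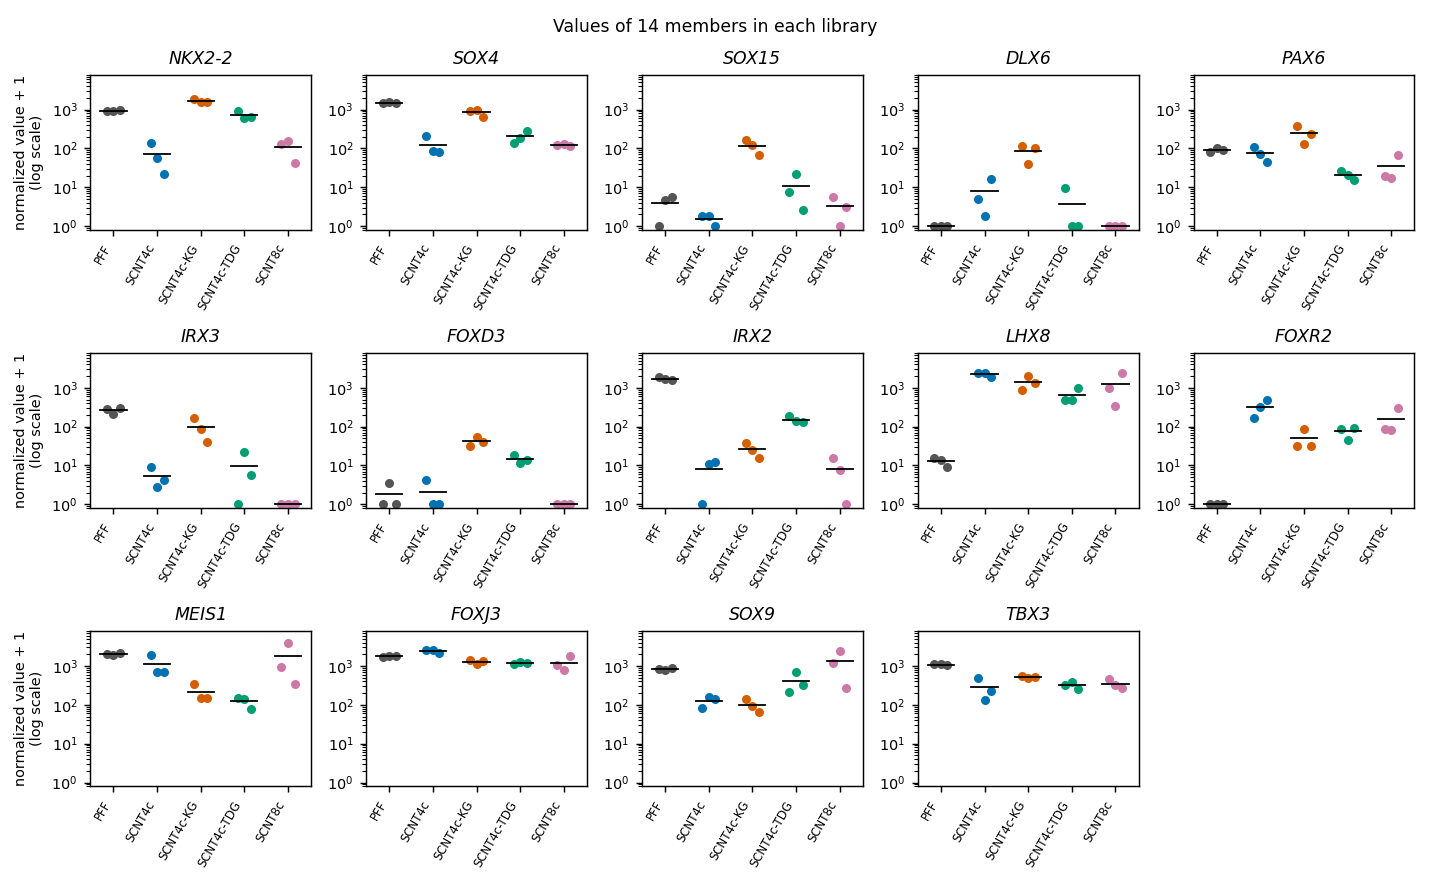
Normalized value plus 1 (log scale) of 14 members in each library; points are libraries and bars are group means. NKX2-2, SOX4, SOX15, DLX6, PAX6 and IRX3 are highest of the embryo groups in SCNT4c-KG, IRX2 in SCNT4c-TDG, and SOX9 in SCNT8c, where its 3 libraries spread from 275 to 2466.

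The third comparison asks which members changed in clones in which TDG was induced by doxycycline, against the same 3 SCNT4c libraries. Of 60 members tested 14 were called, 6 higher and 8 lower (23.3%), where 33.3% of all features were called (15.7% higher, 17.6% lower). The median log2 fold change was -0.16 over the members and -0.26 over all features. Scaled to the same total in each library, 13 members were called, 7 higher and 6 lower, against 32.9% of all features, so the split between directions depended on the scaling. All 14 had groups that did not overlap, as did 99.3% of all called features. Because both treatments were set against the same libraries, a low or high SCNT4c value enters both comparisons.

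*IRX2* rose most. It was 0, 9.61 and 11.6 in SCNT4c against 192, 135 and 128 in SCNT4c-TDG (log2 fold change 4.88 ± 1.13 (SE), adjusted p = 0.00401), against 1842, 1679.9 and 1597 in PFF and 37.6, 24.1 and 14.2 in SCNT4c-KG. Its promoter window, shown above, holds the most CpG of the 4 printed. The median observed-over-expected CpG ratio was 0.882 for the 6 members called higher in SCNT4c-TDG and 0.641 for the 8 lower. In SCNT4c-KG the order was the reverse, 0.667 for the 7 higher and 0.870 for the 6 lower. A link between CpG and these changes was not tested. *NKX2-2* was 136, 56.8 and 20.8 in SCNT4c against 904, 599.9 and 643 in SCNT4c-TDG (log2 fold change 3.66 ± 0.60 (SE), adjusted p = 0.000323). The calls of *IRX2* and *NKX2-2* held in every alternative. *FOXD3* was 3.15, 0 and 0 in SCNT4c against 17.6, 10.7 and 13.0 in SCNT4c-TDG (log2 fold change 3.17 ± 0.93 (SE), adjusted p = 0.0166). *SOX11* was 9.46, 3.50 and 1.66 in SCNT4c against 66.9, 36.8 and 97.9 in SCNT4c-TDG (log2 fold change 3.66 ± 1.31 (SE), adjusted p = 0.0423), and *SOX12* was 2.37, 26.2 and 14.1 in SCNT4c against 56.9, 84.4 and 42.8 in SCNT4c-TDG (log2 fold change 2.43 ± 0.89 (SE), adjusted p = 0.0459). For both SoxC genes the treated values stayed below all PFF values.

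Among the members that fell, *MEIS1* was 1953, 696 and 705 in SCNT4c against 147, 137 and 78.8 in SCNT4c-TDG (log2 fold change -3.07 ± 0.70 (SE), adjusted p = 0.00361). *FOXP1* was 57.6, 35.8 and 48.2 in SCNT4c against 0, 0 and 2.30 in SCNT4c-TDG; with 3 reads over the SCNT4c-TDG libraries the ratio of treated to control was 0.0166 (95% counting interval 0.00338 to 0.0492; adjusted p = 0.00399). Both falls held in every alternative. *FOXR2* was 167, 315 and 475 in SCNT4c against 87.8, 43.7 and 91.8 in SCNT4c-TDG (log2 fold change -2.03 ± 0.65 (SE), adjusted p = 0.0255). *LHX8* was 2386, 2459 and 1847 in SCNT4c against 473, 493 and 988 in SCNT4c-TDG (log2 fold change -1.85 ± 0.55 (SE), adjusted p = 0.0171), and *FOXJ3* was 2512, 2577 and 2161 in SCNT4c against 1111, 1303 and 1203 in SCNT4c-TDG (log2 fold change -1.002 ± 0.31 (SE), adjusted p = 0.0201). The last 2 are the members with the highest per-length values in SCNT4c, and the summed oocyte markers were also lower in SCNT4c-TDG (16061 to 18407 against 73347 to 93198), as were the fibroblast markers (1921 to 2509 against 6491 to 7803) and the cumulus cell markers (582 to 715 against 1419 to 1880). Without *ZP4* the oocyte sums were 4517 to 8039 against 7599 to 9982, and without *INHBA* the cumulus cell sums were 96.7 to 198 against 112 to 314, both overlapping. Of the oocyte markers tested 3 were lower and *TCL1A* higher, of the fibroblast markers 5 were lower and *S100A4* higher, and of the cumulus cell markers *INHBA* was lower. The part of these other transcripts in the falls was not tested. *FOXN3* was 135, 32.3 and 39.9 in SCNT4c against 4.18, 0.767 and 8.42 in SCNT4c-TDG (log2 fold change -3.69 ± 1.18 (SE), adjusted p = 0.0257), and *TBX6*, a paraxial mesoderm factor, was 59.2, 33.2 and 58.1 in SCNT4c against 18.4, 1.53 and 9.18 in SCNT4c-TDG (log2 fold change -2.64 ± 0.98 (SE), adjusted p = 0.0495).

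With 1 library left out, *SOX11* was lost in each of the 6 cases (adjusted p = 0.0509 to 0.126), *SOX12* in each but that without SCNT4c b (0.0649 to 0.185) and *TBX6* in each but that without SCNT4c-TDG 1 (0.0765 to 0.215). *FOXD3* was lost without SCNT4c b, SCNT4c c or SCNT4c-TDG 1 (0.0565 to 0.0671), *FOXJ3* without SCNT4c a, SCNT4c b, SCNT4c-TDG 1 or SCNT4c-TDG 3 (0.0535 to 0.0745), *FOXN3* without SCNT4c a, SCNT4c-TDG 1 or SCNT4c-TDG 2 (0.0598 to 0.110), *FOXR2* without SCNT4c b, SCNT4c c, SCNT4c-TDG 1 or SCNT4c-TDG 2 (0.0507 to 0.110) and *LHX8* without SCNT4c a, SCNT4c b, SCNT4c-TDG 1 or SCNT4c-TDG 2 (0.0522 to 0.0693). The count of members called was 9 without SCNT4c a or SCNT4c c (26.8% and 27.7% of all features), 7 without SCNT4c-TDG 1 (23.7%) and 8 without SCNT4c-TDG 2 (24.2%), and 24 of 57 in a fit of the 2 groups alone, where 47.6% of all features were called. Other settings ended calls too. With the assembled transcripts of its locus *FOXD3* had a log2 fold change of 0.87 (adjusted p = 0.372), and with a pseudocount of 0.1 *SOX11* (0.139), *SOX12* (0.0630), *TBX6* (0.0799) and *FOXN3* (0.0984) were not called in limma. *FOXJ3* fell short of the call with the same total in each library (log2 fold change -0.73, adjusted p = 0.0709). It was also under 2-fold in DESeq2 (log2 fold change -0.71), in edgeR (-0.95), with pseudocount 10 (-0.996) and with quantile normalization (-0.94). edgeR did not call *FOXD3* (adjusted p = 0.0684), *SOX12* (0.103) or *TBX6* (0.110), and DESeq2 did not call *TBX6* (0.0833). In limma with all features above 0, *SOX11* (0.0698), *SOX12* (0.0684) and *TBX6* (0.0847) were lost, as was *TBX6* with the same total (0.0704).

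Setting SCNT4c-TDG against SCNT4c-KG tests the difference between the treatments without the shared control. Of 60 members tested 6 were called (10%), all lower in SCNT4c-TDG, where 16.2% of all features were called, 7.07% higher and 9.13% lower. Among the higher members 5 had an unadjusted p under 0.05 in limma. edgeR called 4 members, 1 of them higher, where it called 13.4% of all features. DESeq2 called 10 members, 3 of them higher, where it called 20.9% of all features. The median log2 fold change was -0.33 over the members and -0.02 over all features. With the same total in each library these medians were 0.01 and 0.32, and 2036 features were higher and 1157 lower, against 1340 and 1730 in the reported fit, while 1 member was higher and 6 lower. *PAX6*, the eye and forebrain factor, was 369, 129 and 241 in SCNT4c-KG and 25.9, 19.9 and 14.5 in SCNT4c-TDG (log2 fold change -3.46 ± 0.68 (SE), adjusted p = 0.00314), with 111, 69.9 and 44.0 in SCNT4c as control. Against that control *PAX6* passed in neither treatment (adjusted p = 0.0641 in SCNT4c-KG and 0.0551 in SCNT4c-TDG). *SOX4* was 912, 1004 and 657 in SCNT4c-KG against 139.7, 186 and 282 in SCNT4c-TDG (log2 fold change -2.11 ± 0.45 (SE), adjusted p = 0.00512). Both differences held in every alternative.

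*DLX6* was 116, 39.3 and 104 in SCNT4c-KG and 8.36, 0 and 0 in SCNT4c-TDG (log2 fold change -5.23 ± 1.15 (SE), adjusted p = 0.00618), *IRX3* was 167, 83.8 and 39.9 in SCNT4c-KG against 0, 20.7 and 4.59 in SCNT4c-TDG (log2 fold change -4.07 ± 1.13 (SE), adjusted p = 0.0229), and *SOX15* was 165, 121 and 67.0 in SCNT4c-KG against 6.69, 21.5 and 1.53 in SCNT4c-TDG (log2 fold change -3.87 ± 1.04 (SE), adjusted p = 0.0194). The 5 members named here had groups that did not overlap, as did 99.6% of all called features. edgeR called none of these last 3 (adjusted p = 0.0719, 0.124 and 0.0683). With a pseudocount of 0.1 limma did not call *IRX3* (adjusted p = 0.0788) or *SOX15* (0.134). With the assembled transcripts of its locus added, which another gene shares, *SOX15* had a log2 fold change of -2.32 and was not called (limma, adjusted p = 0.211). *IRX3* (0.0660 to 0.121) and *SOX15* (0.0628 to 0.105) were also lost without SCNT4c-KG 1, SCNT4c-KG 2, SCNT4c-TDG 1 or SCNT4c-TDG 3, the values being the adjusted p. *NKX2-2*, higher than in SCNT4c under both treatments, did not pass in this comparison (log2 fold change -1.23 ± 0.60 (SE), adjusted p = 0.187), although its highest SCNT4c-TDG library was below its lowest SCNT4c-KG library. *IRX2* (log2 fold change 2.61 ± 1.13 (SE), adjusted p = 0.131) did not pass either.

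The stage comparison, SCNT8c against SCNT4c, called 2 of 60 members (3.33%), 1 higher and 1 lower, where 5.79% of all features were called (2.62% higher, 3.16% lower). *SOX9* was 82.0, 156 and 144 in SCNT4c and 1201, 2466 and 275 in SCNT8c (log2 fold change 2.92 ± 0.67 (SE), adjusted p = 0.0289), with library 3 far below the other two. *FOXJ3* was 2512, 2577 and 2161 in SCNT4c and 1033, 806 and 1761 in SCNT8c (log2 fold change -1.08 ± 0.31 (SE), adjusted p = 0.0499). Groups did not overlap for either gene, as for 97.1% of all called features. The calls were fragile, as were those over all features. A fit of the 2 groups alone called 0 members and 0% of the 18184 features tested. Its adjusted p was 0.198 for *SOX9* and 0.221 for *FOXJ3*, and 9 members had an unadjusted p under 0.05. edgeR called 1 member and 3.47% of all features, and DESeq2 called 4 members and 14.4%. Leaving out any library of SCNT4c, or SCNT8c library 1 or 2, also left 0 members called in limma, where 0.164% to 1.23% of all features were called. In these fits 8 to 13 members had an unadjusted p under 0.05, and the adjusted p was 0.0624 to 0.109 for *SOX9* and 0.0906 to 0.168 for *FOXJ3*. Without SCNT8c library 3, 12 of 58 members were called, where 32.3% of all features were. The median log2 fold change was -0.71 over the members and -0.31 over all features. *LHX8* (1006, 346 and 2379) and *MEIS1* (959.7, 3995 and 349) spread over SCNT8c by more than their distance from SCNT4c and did not pass (adjusted p = 0.151 and 0.904).

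The other members with high values were not called among the embryo groups. *TBX3* was 564, 505 and 523 in SCNT4c-KG, 319, 381 and 253 in SCNT4c-TDG and 462, 326 and 267 in SCNT8c, against 491, 129 and 232 in SCNT4c, and did not pass in any of the embryo comparisons. *FOXO3* lay between 109.7 and 278 and *MEIS2* between 32.6 and 260.2 in all 12 embryo libraries, and neither passed. *MSX2* lay between 42.9 and 195 and did not pass. *LHX6* lay between 65.8 and 387. *FOXK1*, with 5759 or more in each PFF library, was at most 84.5 in any embryo library. *FOXF1* was at 0 in 10 of 12 embryo libraries and *TBX2* reached at most 53.6. A p that misses the threshold does not show that these values are the same.

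Neighbouring members had unlike values. Within 200 kb of each other lay 33 members in 14 clusters. At the *NKX2-2* locus on chromosome 17, *NKX2-4* was 0, 10.5 and 0 in SCNT4c against 0, 12.7 and 0 in SCNT4c-KG, and *PAX1*, a sclerotome factor, was 34.7, 5.24 and 11.6 in SCNT4c against 1.63, 7.61 and 2.85 in SCNT4c-KG, so neither followed *NKX2-2* there. In SCNT4c-TDG *NKX2-4* was 15.1, 35.3 and 27.5, higher by 3.50 on the log2 scale without passing (adjusted p = 0.0502). On chromosome 6, *FOXF1*, *FOXC2* and *FOXL1* span 57.4 kb and had PFF means of 517, 63.8 and 31.3 and SCNT4c means of 0, 3.35 and 0. On chromosome 7, within 176 kb, *FOXC1* fell from a mean of 444 in PFF to 85.6 in SCNT4c while *FOXQ1* was 0.849 and 25.8 and *FOXF2* 1.59 and 37.1.

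Partners and regulators of the members were taken from 2 lists. Of cofactors such as the TALE proteins PBX and PKNOX, the EYA partners of the *sine oculis* proteins and the Groucho corepressors TLE, 14 were tested among embryos. *TLE4* was higher and *EYA1* and *TLE2* were lower in SCNT4c-KG, *PBX3* and *TLE4* higher and *TLE2* lower in SCNT4c-TDG, and the others did not pass there. *TLE3* was higher and *TLE2* lower in SCNT8c than in SCNT4c, and *TLE2* was lower in SCNT4c-TDG than in SCNT4c-KG. *TLE2* was 5104, 2624 and 3227 in SCNT4c, 2351, 961 and 846 in SCNT4c-KG and 344, 389 and 408 in SCNT4c-TDG. Against PFF, 12 of 18 cofactors tested were lower in SCNT4c and 3 higher. Of Polycomb complex genes, 9 of 28 tested were higher and 4 lower in SCNT4c-KG, 9 higher and 5 lower in SCNT4c-TDG, and 9 of 29 higher and 16 lower in SCNT4c against PFF. *EZH2*, the target of GSK126, was 339.9, 344 and 314 in SCNT4c, 915, 1027 and 1245 in SCNT4c-KG and 1208, 1179.8 and 983 in SCNT4c-TDG, higher under both treatments. *SUZ12*, its partner in the complex, was 1806, 1559.8 and 1178 in SCNT4c, 582, 706 and 745 in SCNT4c-KG and 3739, 2563 and 2917 in SCNT4c-TDG, and was higher in SCNT4c-TDG than in SCNT4c-KG. Shares of all features called in these comparisons are given above.

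Of the 126 members 13 had no read in any library: *DLX5*, *FOXI2*, *FOXN2*, *FOXN4*, *FOXO1*, *FOXR1*, *LHX2*, *MEIS3*, *NKX1-1*, *NKX1-2*, *NKX2-1*, *NKX6-3* and *TBX21*. A value of 0 in the gene entry is not the absence of RNA, since the table also holds 15070 transcripts that the authors assembled and counted on their own, and reads that fall on such a transcript can be missing from the gene. Assembled transcripts lay at the loci of 68 members, at 31 of them with no other gene in the locus, and at 11 of these the assembled value was above that of the gene entry. With these reads added, 5 of the 13 stayed at 0 (7 where loci with another gene were left as they were).

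At 6 of the 31 loci with no other gene the gene entry was under 10 in every group and the assembled transcript at least 100 in some group. The same held at *FOXB2*, *FOXR1* and *TBX4*, whose loci hold other genes, and these are not followed further. At *DLX5*, which spans 20.2 kb together with *DLX6* and acts with it in jaw and limb, the assembled value was 78.1, 30.6 and 25.7 in SCNT4c, 1413, 339 and 1345 in SCNT4c-KG, 41.0, 11.5 and 22.2 in SCNT4c-TDG and 15.9, 8.92 and 7.15 in PFF. Summed with the gene entry it was higher in SCNT4c-KG than in SCNT4c (log2 fold change 4.41 ± 0.67 (SE), adjusted p = 0.000148) and lower in SCNT4c-TDG than in SCNT4c-KG (log2 fold change -5.23 ± 0.67 (SE), adjusted p = 0.000168). *DLX6* showed the same directions in its own gene entry. At *FOXI3*, a forkhead gene of ectoderm and inner ear, the assembled value was 135, 400.2 and 462 in SCNT4c, 982, 1495 and 2307 in SCNT4c-KG and 1423, 1183 and 1312 in SCNT4c-TDG, and 0 in each library of PFF. The sum was higher in both treated groups (log2 fold change 2.36 ± 0.51 (SE), adjusted p = 0.00238, and log2 fold change 2.15 ± 0.51 (SE), adjusted p = 0.00480).

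At *FOXN2* the assembled value was 521, 157 and 273 in SCNT4c against 1.22, 0 and 10.7 in PFF. *FOXO1*, a target of insulin signalling, was 173, 249.6 and 174 in PFF and 14.2, 55.9 and 58.9 in SCNT4c, and *MEIS3* was 106, 143 and 98.9 in PFF and 0.789, 0 and 0 in SCNT4c. At *NKX2-8* the value was 99.4, 175 and 144 in SCNT4c, 6.53, 38.1 and 25.6 in SCNT4c-KG and 4.89, 2.55 and 2.38 in PFF, and the sum was lower in SCNT4c-KG (log2 fold change -2.60 ± 0.88 (SE), adjusted p = 0.0309). So *FOXN2* and *NKX2-8* were seen mainly in embryos and *FOXO1* and *MEIS3* mainly in donor cells, all of them at or near 0 in the gene entries. Adding these reads raised the count of members called to 18 of 67 in SCNT4c-KG (9 higher, 9 lower), where 37.2% of all features were called, and 18 of 67 in SCNT4c-TDG (7 higher, 11 lower), where 33.3% were. An assembled transcript at a locus need not be the messenger RNA of the gene.

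**Figure D5:**
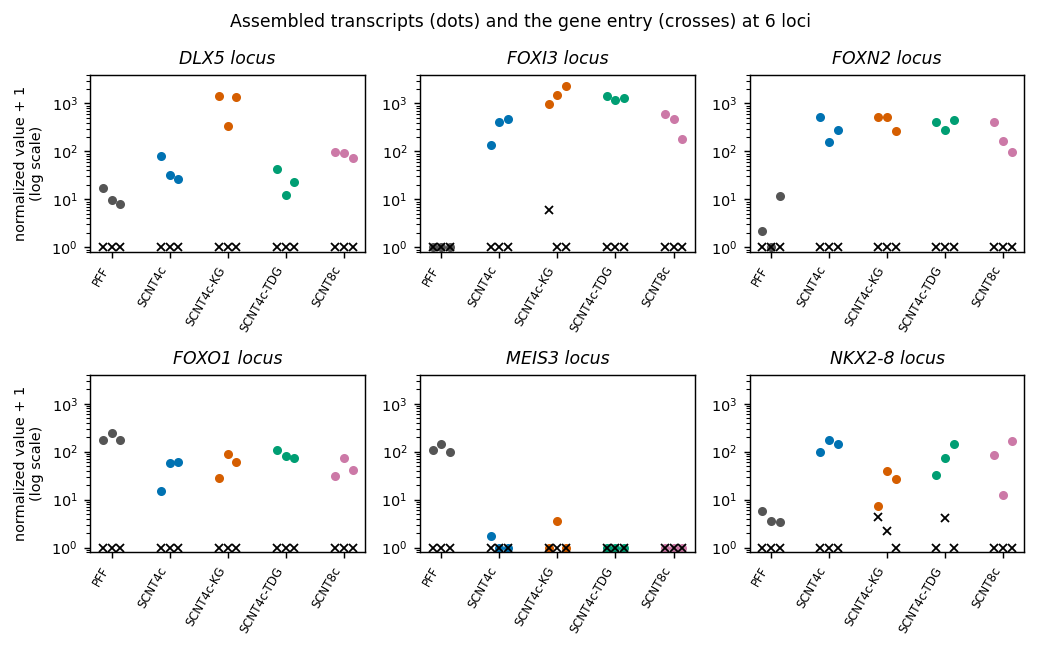
Assembled transcripts (dots) and the gene entry (crosses) at the 6 loci with no other gene, as normalized value plus 1 on a log scale, for each library of the 5 groups. The gene entries lie at or near 0 throughout, while DLX5 reaches 339 to 1413 and FOXI3 982 to 2307 in SCNT4c-KG.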

How the data were processed

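Pooled embryos and PFF were sequenced after SMARTer cDNA amplification. Per the paper's methods and the submitters' processing notes, base calling used CASAVA 1.8.2 and trimming Trimmomatic 0.39, reads were aligned to Sscrofa11.1 with STAR 2.5.3a, StringTie 2.1.2 assembled transcripts, and HTSeq counted uniquely mapped reads per gene. The strand setting of the counting is not given in the sources used here. The deposited signal column of each library holds those counts as the authors scaled them, by 1 factor per library whose source is not given in the sources used here. Every value was a whole multiple of what 1 read is worth (100% of values within 0.01 of a whole number), so reads were recovered for depth, counting intervals (95%, exact, counting error only) and count tests. Of 43535 entries 241 repeats were removed.

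Values were tested with limma 3.58.1 on log2(value + 1), with an intensity trend, for features with a mean of at least 10, and with Benjamini-Hochberg adjustment over all of them. A feature was called at an adjusted p under 0.05 and over 2-fold. A fold change on this scale understates that of low values. The 12 embryo libraries shared 1 fit, and SCNT4c against PFF had its own fit of 6 libraries. A permutation test of 3 against 3 libraries cannot go below 0.1, so single genes rest on the fit across features. Alternatives were edgeR 4.0.16 and DESeq2 1.42.0 on the recovered reads, other scalings, filters and pseudocounts, sums with assembled transcripts, and leaving out each library. The sum over loci with no other gene and the list sums without their highest gene were chosen after seeing the data. Scripts were tested on simulated data.

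Named members are, for each comparison, up to 12 called rises and 12 called falls with groups that do not overlap, besides the highest member of each family and each member with a group mean of at least 500. *NKX2-4*, *PAX1*, *PAX5*, *FOXC1*, *FOXC2*, *FOXL1*, *FOXQ1*, the 13 members without reads and those given for assembled transcripts were named outside this rule, after their values were seen. The members and lists were chosen with earlier results of these data known. The table numbers the SCNT4c libraries otherwise than the titles, so they are called a, b and c. Gene positions and promoters come from RefSeq on Sscrofa11.1, and exon length from the same annotation. Some members and promoter windows are not reported here, though counts and sums over the members include them.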

Additional observations from a re-analysis of the deposited data

Results flagged for a closer look

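For 5 members the change under the 2 treatments differed by the test of the difference itself (limma, SCNT4c-TDG against SCNT4c-KG, adjusted p under 0.05). The log2 difference was -5.23 for *DLX6*, -4.07 for *IRX3*, -3.87 for *SOX15*, -3.46 for *PAX6* and -2.11 for *SOX4*, each lower in SCNT4c-TDG in all 3 libraries than in any SCNT4c-KG library. In this comparison 16.2% of all features were called, against 10% of members, and 99.6% of all called features had groups that did not overlap. edgeR did not call *DLX6*, *IRX3* or *SOX15* (adjusted p = 0.0719, 0.124 and 0.0683). *SOX15* shares exons with *MPDU1* and lost the call with the assembled transcripts of its locus added (limma, adjusted p = 0.211).

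At 6 loci with no other gene the assembled transcripts, which the comparisons of gene entries do not use, carried signal where the gene entry was at or near 0. The mean assembled value was 1595 at *FOXI3*, 1032 at *DLX5* and 435 at *FOXN2* in SCNT4c-KG, 139.5 at *NKX2-8* in SCNT4c, and 199 at *FOXO1* and 116 at *MEIS3* in PFF.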

How the results depend on the processing

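Named members kept their direction in every alternative run; of these repeats 892 stayed on the same side of the threshold and 124 lost the call. The table allows no statement below its depth: a member with 0 reads may still have up to 3 in a library. The members called in SCNT4c-KG numbered 6 with a minimum mean of 50 (49.5% of all features), and 7 to 12 with 1 library left out (28.9% to 33.1%). In SCNT4c-TDG they numbered 9 with that minimum (47.6%), 24 in a fit of the 2 groups alone (47.6%) and 7 to 11 with 1 library left out (23.7% to 27.7%). In SCNT8c there were 2 in the reported fit, 1 each with pseudocount 0.1 (4.53% of all features), with all features above 0 (1.67%), with the same total in each library (5.94%) and in edgeR (3.47%), 5 with pseudocount 10 (8.77%), 4 each with a minimum mean of 50 (12.5%) and in DESeq2 (14.4%), 0 in a fit of the 2 groups alone (0%), and 0 to 12 with 1 library left out (0.164% to 32.3% of all features, against 5.79% in the reported fit). SCNT4c-TDG against SCNT4c-KG gave 10 in DESeq2 (20.9% of all features), 13 in a fit of the 2 groups alone (27.5%) and 4 to 7 with 1 library left out (9.45% to 13.3%), where the reported fit called 6 (16.2%). SCNT4c against PFF gave 52 to 59 with 1 library left out (73.6% to 79.5%). The causes were not tested.

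The numbers of SCNT4c-KG and SCNT4c-TDG libraries did not pair them: deviations from group means correlated with r between 0.00 and 0.02 for equal numbers. With the replicate block SCNT4c-TDG against SCNT4c-KG gave 14 members (26.5% of all features), against 13 without it in the same 2 groups (27.5%). No paired analysis was possible for comparisons with SCNT4c because its columns carry no usable number.

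Scaling moved the median log2 fold change of all features. In SCNT4c-TDG it was -0.26 in the reported fit, 0.00 with the same total and -0.08 after quantile normalization, and members then split into 6 higher and 8 lower, 7 and 6, and 8 and 9. In SCNT4c-KG it was -0.30 in the reported fit and -0.09 in DESeq2 (7 and 6, then 10 and 5). In SCNT4c against PFF it was 0.07, and 0.67 with the same total, 0.96 in edgeR and 1.01 in DESeq2, where the members split into 17 higher and 40 lower, 19 and 39, and 19 and 40.

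Detected members numbered 75 in PFF, 74.3 in SCNT4c, 71 in SCNT4c-KG and 85.7 in SCNT4c-TDG on average with 1 read in place of 3, and 57.3, 53.3, 47.3 and 55.3 with 10 reads, where SCNT8c had 43.7. Thinned reads left 68 in SCNT4c-TDG. Adding assembled transcripts gave 82 in PFF, 89 in SCNT4c, 82.7 in SCNT4c-KG, 94 in SCNT4c-TDG and 76.3 in SCNT8c, and left 5 members never seen (7 where no other gene shares the locus). The members' sum was 28281 in PFF and 7771 in SCNT4c-TDG with the same total, and 27907 in PFF, 6794 in SCNT4c, 7563 in SCNT4c-KG and 4442 in SCNT4c-TDG without the broadly expressed forkheads. With 1 library left out it ran from 40134 to 40637 in PFF, 8471 to 10680 in SCNT4c, 8977 to 9528 in SCNT4c-KG, 5872 to 6007 in SCNT4c-TDG and 7270 to 9222 in SCNT8c.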

Other observations

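Members grouped by tissue behaved as follows in the fits above. Of 11 members known from the early embryo and germ line, 8 were tested among embryos. *FOXD3* and *SOX15* were higher in SCNT4c-KG, and in SCNT4c-TDG *FOXD3* was higher and *LHX8* lower. Their median log2 fold change was 0.53 in SCNT4c-KG and 0.37 in SCNT4c-TDG, where those of all features were -0.30 and -0.26. Against PFF 6 were tested, with *LHX8* and *SOX7* higher and *FOXL2*, *FOXO3* and *TBX3* lower in SCNT4c.

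Of 12 forkheads used by most cell types 7 were tested among embryos. *FOXJ2* and *FOXN3* were lower in SCNT4c-KG and *FOXJ3*, *FOXN3* and *FOXP1* in SCNT4c-TDG, and their summed value ran from 2551 to 3244 in SCNT4c, 1494 to 1710 in SCNT4c-KG, 1461 to 1555 in SCNT4c-TDG and 12345 to 12648 in PFF. SCNT8c sums were 1084 to 2055, so the sums of SCNT4c lay above those of every other embryo group. *FOXJ3* made up 82.2% of the SCNT4c sum. Without it the sums were 390 to 732 in SCNT4c, 251 to 374 in SCNT4c-KG, 252 to 350.4 in SCNT4c-TDG and 195 to 294 in SCNT8c. Neural and sensory members summed to 452 to 1021 in SCNT4c, 2261 to 2787 in SCNT4c-KG, 907 to 1455 in SCNT4c-TDG, 235 to 401 in SCNT8c and 4993 to 5555 in PFF. *NKX2-2* alone made up 67.3% of the sum in SCNT4c-KG and 63.1% in SCNT4c-TDG. Without it the sums were 432 to 885 in SCNT4c, 667 to 944 in SCNT4c-KG and 308 to 551 in SCNT4c-TDG, so the mean in SCNT4c-TDG (418) was below that in SCNT4c (600.0), with overlapping libraries. Of 9 endoderm members listed, the fit of embryos tested 3, and their sums were 72.2 to 200.1 in SCNT4c, 109 to 222 in SCNT4c-KG, 178 to 275 in SCNT4c-TDG, 169 to 204 in SCNT8c and 124 to 145 in PFF.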
